A study of Rattus norvegicus with 16 samples.

Results

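Endothelins are small peptides that constrict blood vessels and act as growth signals for neural crest cells. A long precursor is first cut by furin-like proteases to an inactive form, which endothelin-converting enzyme, a membrane metalloprotease, then trims to the active peptide. The peptides act on the endothelin A and B receptors, which signal through G proteins, and in the carotid body endothelin released in hypoxia is known as a growth signal for the precursor cells of the organ. The genes examined were the ligand genes Edn1 and Edn3, the receptor genes Ednra and Ednrb and the converting enzyme gene Ece1. They were chosen by name, and each was read from the probe that names that gene alone and has the highest mean over all arrays. Of the 5 genes, 3 were read in this way, Edn1, Edn3 and Ece1, each from 1 probe, out of 18166 genes in all. Ednra and Ednrb were not analysed here, so every statement below is about ligand and enzyme transcripts.

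The carotid body senses arterial oxygen at the carotid bifurcation. Wistar rats of 9 to 11 weeks breathed ambient air (normoxia) or were kept in hypoxic chambers for 3 days. Both carotid bodies were pooled, and the dispersed cells were sorted with an antibody to HNK-1, a sugar epitope of neural crest cells, into HNK-1 positive neuroblasts and HNK-1 negative glomus cells, the chemoreceptor cells. The 2 populations and 2 conditions gave 4 groups of 4 arrays: normoxic glomus cells, normoxic neuroblasts, hypoxic glomus cells and hypoxic neuroblasts. HNK-1 negative cells are defined by the lack of a mark, so this gate can hold other cells of the organ. The HNK-1 positive gate was not shown to hold neuroblasts alone. Whether the arrays of a group stand for different animals is not stated in the labels, and p-values therefore measure only the spread between these samples. Values are log2 signals, differences are log2 with the limma standard error after ±, and a gene passed at a Benjamini-Hochberg adjusted p under 0.05 over all 30429 probes.

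Some facts of the arrays bear on every hypoxia result. The medians of the normoxic arrays lay between 4.40 and 4.64 and those of the hypoxic arrays between 4.71 and 4.94, and the median difference of all probes was 0.17 in glomus cells and 0.25 in neuroblasts. That shift differed with brightness: in neuroblasts the median difference was 0.30 among the dimmest 25% of the probes and -0.33 among the brightest 25%, and in glomus cells 0.20 and -0.17. Differences are therefore also given with each array centred on its median. That step removes a shift common to all probes but not the part that differs with brightness. Centring also moved the share of higher calls among all probes that passed, from 49.7% to 26.6% in glomus cells and from 57.4% to 25% in neuroblasts, and quantile normalization gave 47.1% and 47%. Across probes, hypoxic neuroblast replicate 1 had a mean correlation of 0.914 with the rest of its group. The other arrays of that group were each at 0.949, a mean that includes their correlation with replicate 1. All arrays of the other 3 groups were at 0.968 or above. The labels name no processing batch, so batch effects and the effect of oxygen cannot be told apart. Th, the marker enzyme of glomus cells, was bright in all groups (means 11.13 to 12.62). B3gat1, which builds the HNK-1 epitope, was higher in normoxic neuroblasts than in normoxic glomus cells (1.36 ± 0.29, adjusted p = 0.0197), and in hypoxia the difference was 0.31 ± 0.29 (adjusted p = 0.72).

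The promoters of Edn1 and Ece1 are shown because Edn1 is a textbook target of hypoxia-inducible, GATA and AP-1 factors, of which some transcripts are described below, and because Ece1 is the gene that fell. Each line gives the 250 bases before the RefSeq start in GRCr8, 5′ to 3′ on the strand of the gene. Edn1 lies at chr17:22666688-22666937 on the minus strand and Ece1 at chr5:155360781-155361030 on the plus strand. Capitals mark matches, on either strand, to ACGTG (hypoxia-inducible factors), GATAA (GATA factors) or TGANTCA (AP-1), and no 2 matches overlapped.
Edn1: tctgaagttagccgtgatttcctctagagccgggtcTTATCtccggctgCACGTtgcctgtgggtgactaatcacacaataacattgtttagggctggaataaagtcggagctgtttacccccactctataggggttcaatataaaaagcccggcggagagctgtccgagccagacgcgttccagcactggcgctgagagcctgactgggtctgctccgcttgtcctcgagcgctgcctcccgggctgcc
Ece1: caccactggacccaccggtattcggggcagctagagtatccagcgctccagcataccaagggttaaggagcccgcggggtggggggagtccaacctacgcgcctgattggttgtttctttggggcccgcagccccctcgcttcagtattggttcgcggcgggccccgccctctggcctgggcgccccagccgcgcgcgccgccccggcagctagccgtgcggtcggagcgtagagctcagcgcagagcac
The Edn1 window held 1 match to ACGTG, read on the opposite strand at bases 201 to 197 before the start, and 1 match to GATAA, also on the opposite strand at bases 214 to 210. The Ece1 window held no match to any of the 3. Of 33469 promoters of the same length, 16.6% held ACGTG, 23.5% GATAA and 6.34% TGANTCA. A match describes letters only and is no evidence of binding. The lack of a match is no evidence against binding, since variants of these letters were not counted.

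Ece1 had lower transcript levels after hypoxia in both populations. In normoxic glomus cells replicates 1 to 4 read 8.73, 8.21, 8.73 and 8.56, and in hypoxic glomus cells 7.65, 7.39, 7.61 and 7.66. All hypoxic glomus values lay below all normoxic ones, as they did for 11.3% of all probes. The means were 8.56 ± 0.25 and 7.58 ± 0.13 (SD, n = 4), a difference of -0.98 ± 0.28 or 1.97-fold lower (limma adjusted p = 0.021, 95% interval -1.57 to -0.39). Fewer cells of a type and less RNA per cell cannot be told apart in such sorted pools. In normoxic neuroblasts the Ece1 values were 7.65, 7.86, 8.61 and 8.24, and in hypoxic neuroblasts 6.09, 7.04, 7.76 and 7.28. The lowest of all 16 values was hypoxic neuroblast replicate 1, and the neuroblast groups overlapped. The neuroblast means were 8.09 ± 0.42 and 7.04 ± 0.70 (SD, n = 4), a difference of -1.05 ± 0.28 or 2.07-fold lower (limma adjusted p = 0.00989). Without hypoxic neuroblast replicate 1 the fall was -0.73 (adjusted p = 0.0391).

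**Figure D1:**
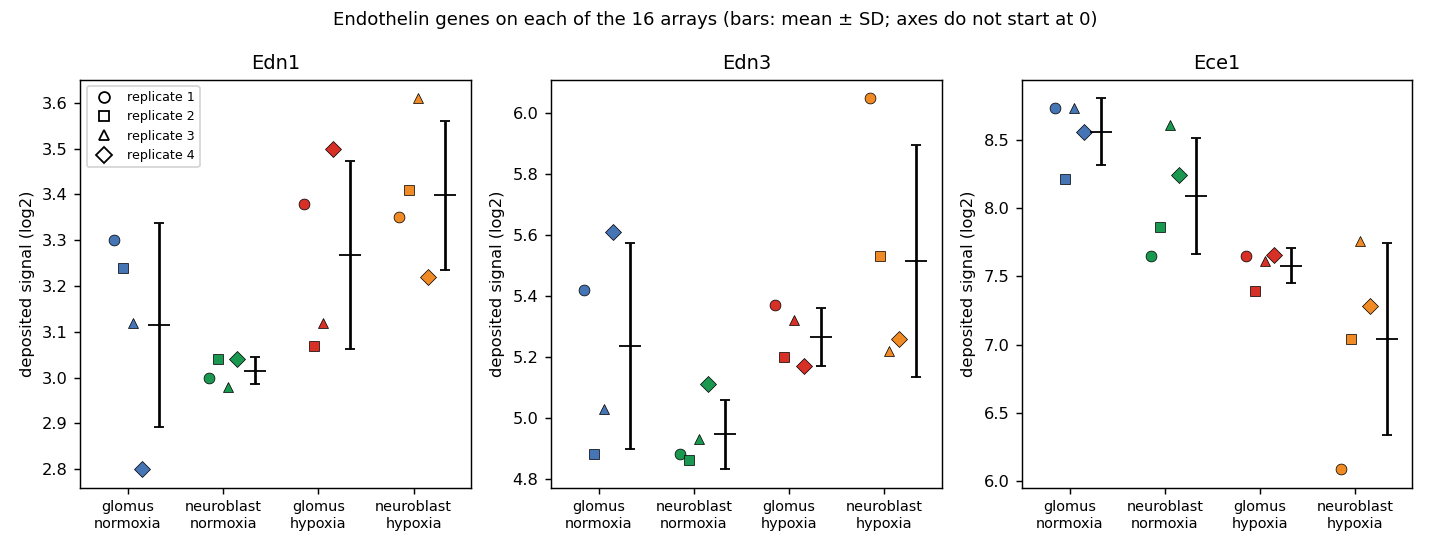
Signal (log2) of Edn1, Edn3 and Ece1 on each array of the 4 groups, with the group mean ± SD beside the points and 1 marker shape per replicate. The 4 hypoxic glomus arrays sit between 7.39 and 7.66 for Ece1, below the 4 normoxic ones, and hypoxic neuroblast replicate 1 holds the lowest Ece1 value (6.09) and the highest Edn3 value (6.05).

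Of the 3 genes, Ece1 alone passed in glomus cells, where 18.9% of all probes passed and 9.5% passed as lower. In neuroblasts Ece1 and Edn3 passed, where 32.1% of all probes passed and 13.7% passed as lower. Among the brightest 25% of probes, where Ece1 lies, 26.7% passed as lower in glomus cells and 37.2% in neuroblasts. A fall was thus a common change among probes as bright as that of Ece1. After centring of the arrays the difference of Ece1 was -1.20 ± 0.32 in glomus cells (adjusted p = 0.0138) and -1.33 ± 0.32 in neuroblasts (adjusted p = 0.00476). Centring made every hypoxia difference lower, because the hypoxic arrays had higher medians. Ece1 also passed in both populations with quantile normalization. Its smallest falls under the alternatives other than leaving out 1 array were -0.83 in glomus cells and -0.79 in neuroblasts. In glomus cells the call ended without normoxic replicate 1 (-0.92, adjusted p = 0.0511), without normoxic replicate 3 (-0.92, adjusted p = 0.0635) or without hypoxic replicate 2 (-0.92, adjusted p = 0.0563), and in neuroblasts when the 8 neuroblast arrays were fitted alone (adjusted p = 0.0544).

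The groups ranked by mean Ece1 signal ran from normoxic glomus cells through normoxic neuroblasts and hypoxic glomus cells to hypoxic neuroblasts. Neighbours in that order overlapped in their values. Neuroblasts read -0.47 ± 0.28 against glomus cells in normoxia (adjusted p = 0.737, 95% interval -1.06 to 0.13) and -0.54 ± 0.28 in hypoxia (adjusted p = 0.501, 95% interval -1.13 to 0.06). Over all probes, 1.82% passed in the first and 0.283% in the second of these population comparisons. The interaction, the neuroblast difference in hypoxia less the glomus one, was -0.07 ± 0.40 for Ece1 (limma adjusted p = 0.984, 95% interval -0.91 to 0.77), in an interaction test that 0.0789% of probes passed. That interval does not show that the 2 falls were of equal size.

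Edn3 encodes endothelin 3, the ligand by which endothelin acts on migrating neural crest cells through the B receptor. In normoxic neuroblasts the Edn3 values were 4.88, 4.86, 4.93 and 5.11, and in hypoxic neuroblasts 6.05, 5.53, 5.22 and 5.26. All hypoxic values lay above all normoxic ones, as they did for 16.3% of all probes. The means were 4.95 ± 0.11 and 5.52 ± 0.38 (SD, n = 4), a difference of 0.57 ± 0.20 or 1.48-fold higher (limma adjusted p = 0.0363), in a comparison where 18.4% of probes passed as higher. The call ended without hypoxic neuroblast replicate 1 (0.39, adjusted p = 0.112), without replicate 2 of that group (0.57, adjusted p = 0.06) and without normoxic neuroblast replicate 1, 2 or 3 (0.54 to 0.57, adjusted p = 0.0694 to 0.0735). With the arrays centred the Edn3 difference was 0.29 ± 0.19 (adjusted p = 0.307), and with quantile normalization 0.55 (adjusted p = 0.0937).

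In glomus cells Edn3 read 5.42, 4.88, 5.03 and 5.61 in normoxia and 5.37, 5.20, 5.32 and 5.17 in hypoxia. The hypoxic values fell inside the range of the normoxic ones, and the difference was 0.03 ± 0.20 (adjusted p = 0.933, 95% interval -0.39 to 0.45), or -0.19 with the arrays centred. The interaction for Edn3 was 0.54 ± 0.28 (limma adjusted p = 0.769, 95% interval -0.05 to 1.13), so a hypoxia difference particular to neuroblasts was not shown. Between populations Edn3 differed by -0.29 ± 0.20 in normoxia (adjusted p = 0.811) and by 0.25 ± 0.20 in hypoxia (adjusted p = 0.652). By mean signal Edn3 was lowest in normoxic neuroblasts, followed by normoxic glomus cells, hypoxic glomus cells and hypoxic neuroblasts, and each of these neighbouring groups overlapped.

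Edn1 encodes endothelin 1, the endothelial vasoconstrictor and the endothelin most often studied in the hypoxic carotid body. Its probe was dim, with a mean of 3.20 over the 16 arrays and a range of 2.80 to 3.61, at the 21.6th percentile of all probe means. No call of presence was used here, and the distance of this signal from background was not tested. In neuroblasts Edn1 read 3.00, 3.04, 2.98 and 3.04 in normoxia and 3.35, 3.41, 3.61 and 3.22 in hypoxia. All hypoxic values were above all normoxic ones, as for 16.3% of all probes, and the difference of 0.38 ± 0.16 missed the threshold (adjusted p = 0.0704, 95% interval 0.05 to 0.71). With the arrays centred it was 0.10 ± 0.15 (adjusted p = 0.704), and the dimmest 25% of probes, which hold Edn1, had a median difference of 0.30. In glomus cells Edn1 read 3.30, 3.24, 3.12 and 2.80 in normoxia and 3.38, 3.07, 3.12 and 3.50 in hypoxia, which overlapped. The glomus difference of Edn1 was 0.15 ± 0.16 (adjusted p = 0.528, 95% interval -0.18 to 0.48), and -0.06 with the arrays centred. Edn1 differed between populations by -0.10 ± 0.16 in normoxia (adjusted p = 0.991) and 0.13 ± 0.16 in hypoxia (adjusted p = 0.783), and the interaction was 0.23 ± 0.22 (limma adjusted p = 0.901).

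**Figure D2:**
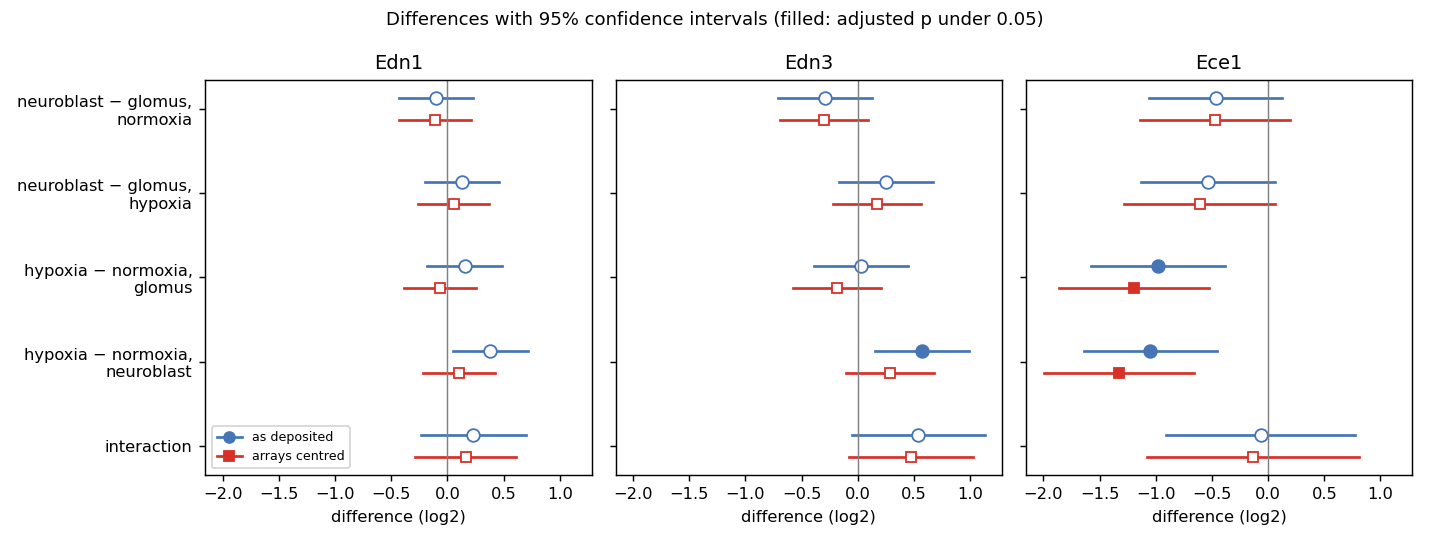
Differences (log2) of Edn1, Edn3 and Ece1 in the 4 comparisons and the interaction, with 95% confidence intervals, for the deposited values (circles) and with each array centred on its median (squares); filled symbols passed at an adjusted p under 0.05. Ece1 passed in both hypoxia comparisons on both scales, while Edn3 in neuroblasts passed on the deposited scale and not after centring.

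By the likeness of their pattern over the 16 arrays, measured as the root mean square difference of log2 values after each gene's own mean was subtracted, the genes nearest to Ece1 among 17598 were Wiz (0.178), Dvl1 (0.204) and Sez6l2 (0.205). Ece1 itself varied by 0.679 about its mean. Wiz differed in hypoxia by -1.0 in glomus cells and -1.05 in neuroblasts, Dvl1 by -0.84 and -1.13 and Sez6l2 by -1.12 and -1.13. The genes nearest to Edn3, which varied by 0.306, were Tbx21 (0.137), Crb1 (0.158) and C16h10orf53 (0.165).

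Of the other genes of endothelin processing and breakdown, 7 of 8 were measured. Furin, the protease that makes the first cut of the precursor, went from 9.18 to 8.12 in glomus cells (-1.06 ± 0.22, adjusted p = 0.00218) and from 8.91 to 7.99 in neuroblasts (-0.93 ± 0.22, adjusted p = 0.00377). Pcsk7, a related protease, fell by 1.22 ± 0.22 in glomus cells (adjusted p = 0.00077) and by 1.05 ± 0.22 in neuroblasts (adjusted p = 0.0015). The differences of Furin and Pcsk7 passed in both populations after centring and quantile normalization and in all 16 fits that left out 1 array. Ece2, the second converting enzyme, read -0.38 in glomus cells and -0.42 in neuroblasts and did not pass (adjusted p = 0.162 and 0.0806). Mme, which encodes neprilysin, an endopeptidase that degrades endothelin, read -0.07 and -0.16 without passing.

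In this list 2 genes were lower and 1 higher in glomus cells and 2 lower and 3 higher in neuroblasts, with medians of -0.07 and -0.16 against 0.17 and 0.25 over all probes. Over all probes 9.5% passed as lower and 9.37% as higher in glomus cells, and 13.7% and 18.4% in neuroblasts. Of the 7 genes, 3 lie among the brightest 25% of probes, Furin and Pcsk7 among them. Of those probes, 26.7% passed as lower in glomus cells and 37.2% in neuroblasts, with medians of -0.17 and -0.33. A fall was thus a common change among probes of that brightness. The third ligand gene, Edn2, was higher by 0.56 ± 0.19 in glomus cells (adjusted p = 0.0494) and by 0.52 ± 0.19 in neuroblasts (adjusted p = 0.0483). Kel, a metalloprotease of red cells that can activate endothelin 3, was higher by 0.51 ± 0.18 in neuroblasts (adjusted p = 0.0397). The neprilysin-like gene Mmel1, named because the count was small, was higher there by 0.46 ± 0.17 (adjusted p = 0.0481). With the arrays centred none of these 4 rises passed in limma (adjusted p = 0.22 to 0.552). In the fits that left out 1 array, Edn2 passed in 4 of 16 for glomus cells and 2 of 16 for neuroblasts. In neuroblasts Kel passed in 10 of 16 such fits and Mmel1 in 3. Edn2 and Kel lie in the second dimmest 25% of probes. Of those, 6.89% passed as higher in glomus cells and 22.6% in neuroblasts, with medians of 0.25 and 0.37. Mmel1 lies in the next 25%, of which 18.7% passed as higher in neuroblasts.

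Endothelin receptors couple to Gq, G12 and Gi proteins, phospholipase C and protein kinase C, and 23 of 27 listed genes of this signalling were measured. In glomus cells 12 fell and none rose, and 15 of the 23 had an unadjusted limma p under 0.05. In neuroblasts 15 fell and 1 rose. Over all probes 9.5% passed as lower in glomus cells and 13.7% in neuroblasts, and among the brightest 25% these shares were 26.7% and 37.2%. The list medians were -0.92 and -1.04, and 15 of its 23 genes lie among the brightest 25% of probes, whose medians were -0.17 and -0.33. Gnaq, the Gq alpha subunit, fell by 1.58 ± 0.19 in glomus cells (adjusted p = 4.18e-05) and by 1.63 ± 0.19 in neuroblasts (adjusted p = 1.05e-05). Grk2, a kinase that desensitizes receptors, fell by 1.74 ± 0.22 in glomus cells. Ptk2b, a calcium-activated tyrosine kinase, fell by 2.11 ± 0.32 there. In neuroblasts Prkca, a protein kinase C, went from 11.56 to 9.49 (-2.07 ± 0.24, adjusted p = 9.15e-06) and Plcb4, a phospholipase C, from 11.04 to 9.72 (-1.32 ± 0.16). The 1 rise was that of Plcb2 in neuroblasts (0.73 ± 0.23, adjusted p = 0.025), which did not pass after centring (adjusted p = 0.129). Between populations 1 gene of the list passed, Rgs2, which limits Gq signalling and was lower in normoxic neuroblasts than in normoxic glomus cells (-1.85 ± 0.34, adjusted p = 0.00509). Of all probes 1.82% passed in that comparison.

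**Figure D3:**
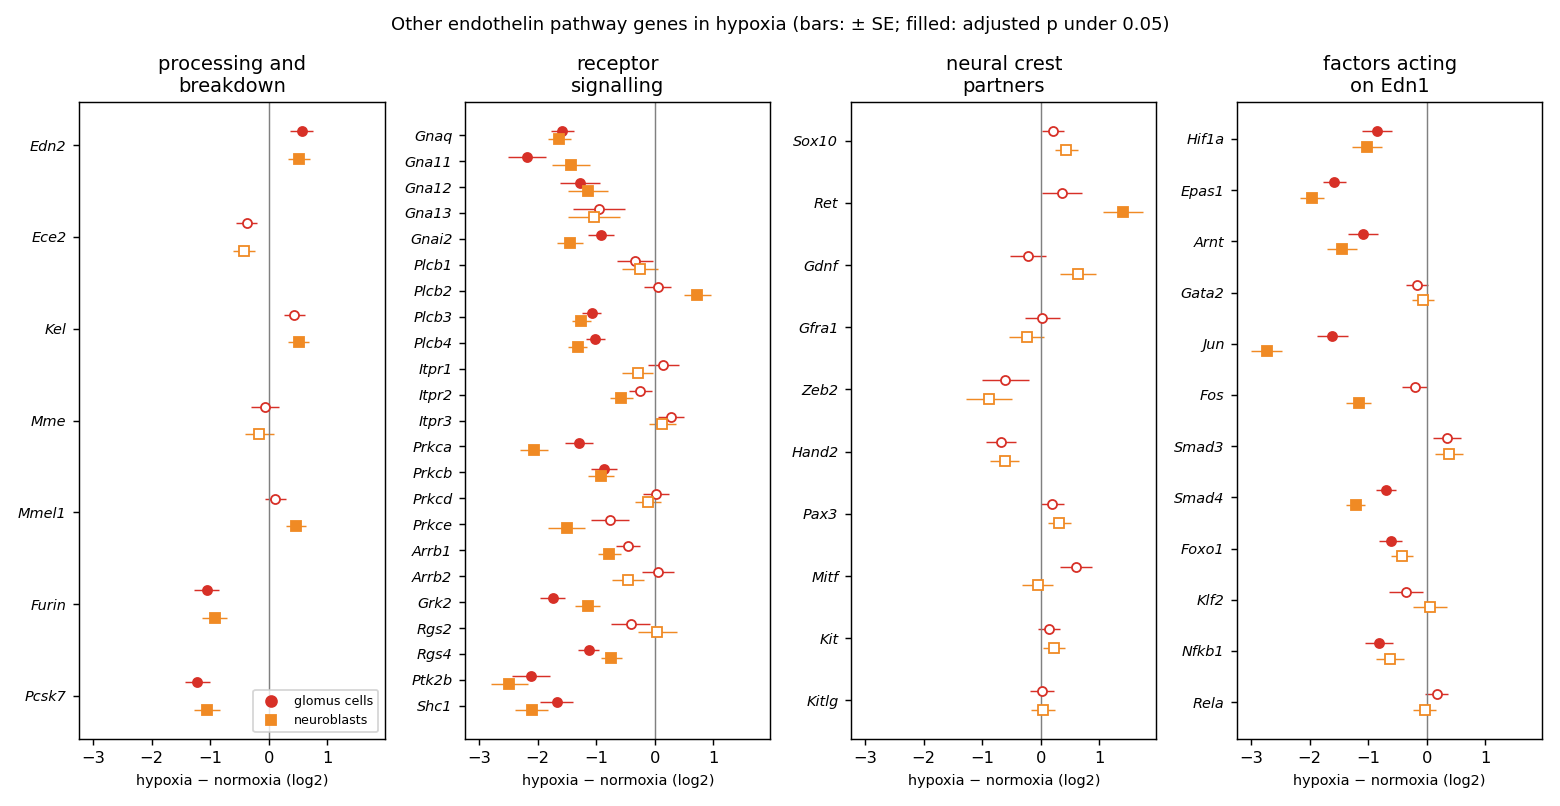
Difference between hypoxia and normoxia (log2, ± SE) for every measured gene of the 4 pathway lists, in glomus cells (circles) and neuroblasts (squares); filled symbols passed at an adjusted p under 0.05. Furin, Pcsk7 and most receptor signalling genes lie to the left of 0 in both populations, and Edn2 lies to the right.

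All 12 genes of the list of transcription factors known to act on Edn1 were measured. In glomus cells 7 fell and in neuroblasts 6 fell, with none higher, and medians of -0.66 and -0.82. Over all probes 9.5% and 13.7% passed as lower. Of the 12 genes, 8 lie among the brightest 25% of probes, of which 26.7% and 37.2% passed as lower with medians of -0.17 and -0.33. Epas1, the hypoxia-inducible factor most abundant in glomus cells, fell by 1.57 ± 0.20 in glomus cells and by 1.96 ± 0.20 in neuroblasts (adjusted p = 2.83e-06). Jun, an AP-1 subunit, fell by 1.61 ± 0.27 and by 2.73 ± 0.27 (adjusted p = 0.000484 and 2.14e-06). Smad4, which transmits TGF-beta signals, fell by 0.69 ± 0.16 and by 1.21 ± 0.16. With quantile normalization 4 of the 12 fell in glomus cells. Gata2, a GATA factor, read -0.17 ± 0.19 in glomus cells and -0.065 ± 0.19 in neuroblasts without passing (adjusted p = 0.557 and 0.795). These are transcript levels, and hypoxia-inducible factors are mainly regulated as proteins.

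Of 12 listed neural crest genes that work with the endothelin B receptor, 10 were measured. Ret, the receptor of GDNF, was lower in normoxic neuroblasts than in normoxic glomus cells (6.73 against 8.72, -1.99 ± 0.34, adjusted p = 0.00294), and so was its ligand gene Gdnf (-1.73 ± 0.30, adjusted p = 0.00364). Over all probes 1.82% passed in that comparison. In hypoxia Ret rose in neuroblasts to 8.12 (1.39 ± 0.34, adjusted p = 0.00543), the 1 gene of the list that passed there, and in glomus cells none passed, with 2 of the 10 at an unadjusted limma p under 0.05. Of all probes 32.1% passed in neuroblasts, 18.4% as higher, and 18.9% passed in glomus cells. Sox10, a regulator of crest and glial cells that acts on Ednrb, read 0.21 ± 0.19 in glomus cells and 0.43 ± 0.19 in neuroblasts without passing (adjusted p = 0.48 and 0.0899).

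Endothelin genes are also made by other cells of the organ, so marker levels are given beside these results; their part in them was not tested. The mean signal of 9 endothelial markers lay between 4.94 and 6.43 in normoxic glomus arrays, 5.68 and 6.54 in hypoxic glomus arrays, 4.08 and 4.58 in normoxic neuroblast arrays and 5.0 and 5.27 in hypoxic neuroblast arrays. Of the 9, 2 rose and none fell in hypoxia in each population, Cldn5 in both (1.77 ± 0.34 and 2.60 ± 0.34), Emcn in glomus cells and Vwf in neuroblasts, where 9.37% and 18.4% of all probes passed as higher. With the arrays centred Cldn5 passed in both populations, and Emcn in glomus cells (adjusted p = 0.0841) and Vwf in neuroblasts (adjusted p = 0.147) did not. Vwf did not pass after quantile normalization either (adjusted p = 0.146). The endothelial cadherin gene Cdh5 differed by 0.78 ± 0.49 and 0.39 ± 0.49 without passing. Within normoxic glomus cells, replicates 1 and 3 had endothelial marker means of 6.43 and 5.97 against 4.94 and 4.97 in replicates 2 and 4. These 2 arrays also held the highest Ece1 values. Macrophage marker means split in the same way, with 6.64 and 5.72 on replicates 1 and 3 against 5.10 and 4.96. So did those of fibroblast markers (6.34 and 5.84 against 5.02 and 5.11), type II and glial markers and other blood cell markers. The means of pericyte, peripheral neuron, glomus cell and neuroblast markers did not. Hypoxic glomus replicate 2 had the highest endothelial marker mean of all arrays (6.54) and the lowest Ece1 value of its group (7.39). Whether the marker levels of these arrays bear on Ece1 was not tested. The group mean of the endothelial markers was 5.58 in normoxic and 6.0 in hypoxic glomus cells. Cldn5 was lower in neuroblasts than in glomus cells in both conditions.

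**Figure D4:**
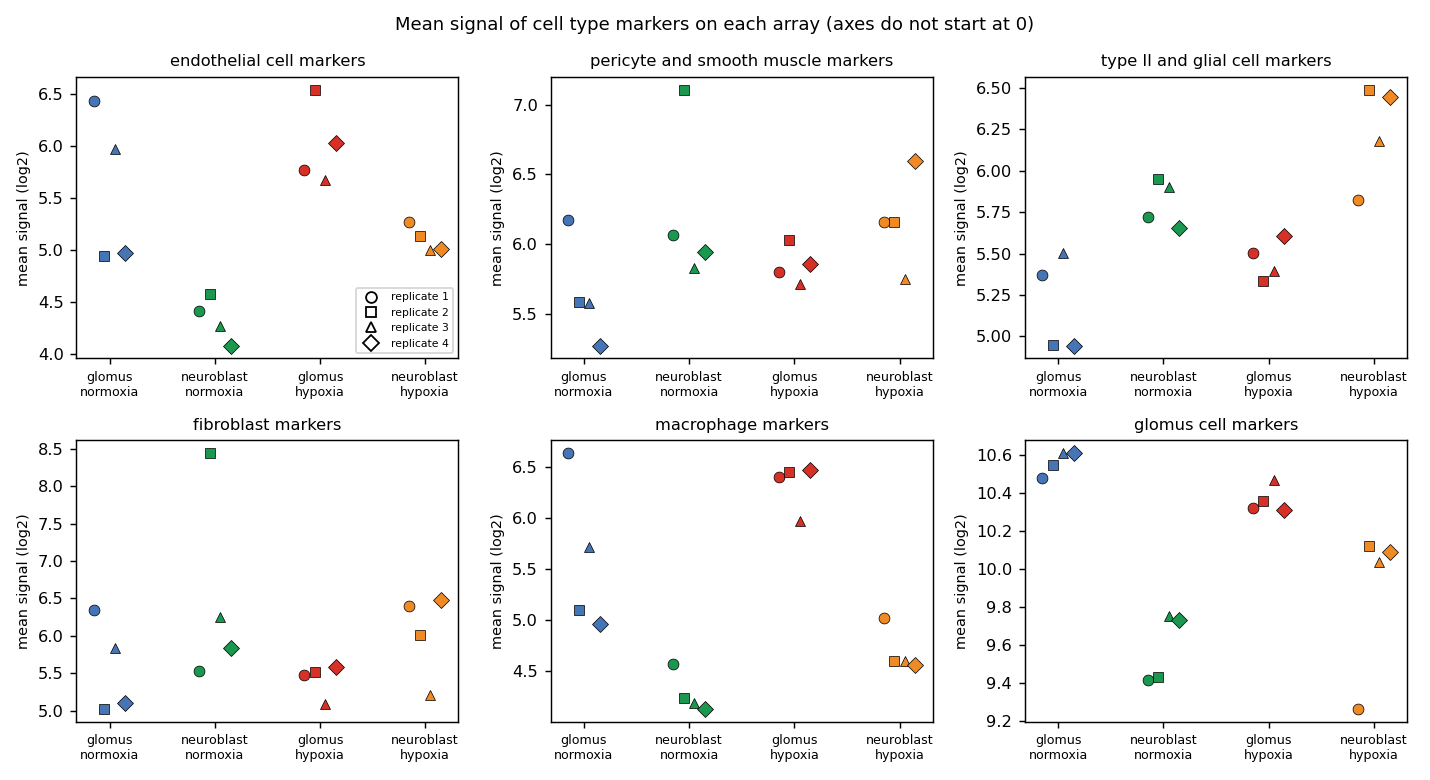
Mean signal (log2) of 6 lists of cell type markers on each array of the 4 groups, with 1 marker shape per replicate. Endothelial markers were at 5.0 to 5.27 in hypoxic neuroblasts against 4.08 to 4.58 in normoxic neuroblasts. Hypoxic neuroblast replicate 1 had the lowest glomus marker mean (9.26). Within its group it also had the lowest glial (5.82) and the highest endothelial marker mean (5.27).

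Macrophage markers, 11 in all, had means of 4.96 to 6.64 in normoxic and 5.97 to 6.47 in hypoxic glomus arrays, where 3 rose, and of 4.13 to 4.57 and 4.56 to 5.02 in neuroblast arrays, where limma passed none and none had an unadjusted p under 0.05. The rises were led by C1qc and Tyrobp (1.49 and 1.89). For this and the following lists, 9.37% of all probes passed as higher and 9.5% as lower in glomus cells. In neuroblasts these shares were 18.4% and 13.7%. Of 10 pericyte and smooth muscle markers, Rgs5 fell (-0.98 ± 0.15 in glomus cells, -0.88 ± 0.15 in neuroblasts) and Des rose in both populations, while Pdgfrb did not pass. The rise of Des in glomus cells did not pass with the arrays centred (0.35, adjusted p = 0.0802) or after quantile normalization (0.34, adjusted p = 0.0931). Of 9 type II and glial markers, S100b rose in both (1.93 ± 0.41 and 2.33 ± 0.41), Gfap rose in neuroblasts (0.87 ± 0.17) and Cdh19 fell in glomus cells, though not after quantile normalization (adjusted p = 0.065). Glial marker means were 5.65 to 5.95 in normoxic neuroblast arrays against 4.94 to 5.51 in normoxic glomus arrays. In hypoxia they were 5.82 to 6.49 against 5.33 to 5.60. Pericyte and fibroblast marker means overlapped between the populations in both conditions. Of 9 fibroblast markers 1 fell in each population, Fbln1. Their mean was 8.44 on normoxic neuroblast replicate 2 against 5.53 to 6.25 on the other 3 arrays of that group, and the median difference of the list in neuroblasts was -0.82, or -1.10 with the arrays centred. Of 10 markers of other blood cells limma passed none in either hypoxia comparison, with 3 and 2 at an unadjusted p under 0.05. Of 8 peripheral neuron markers 1 fell in glomus cells, Isl1, and in neuroblasts 2 rose and 2 fell. Of 8 glomus cell markers 1 rose and 2 fell in glomus cells, and 3 rose and 2 fell in neuroblasts, Th among the latter (-1.17 ± 0.39, adjusted p = 0.03). All 8 lie among the brightest 25% of probes. Of those probes, 17.2% passed as higher and 26.7% as lower in glomus cells, and 19.6% and 37.2% in neuroblasts. The mean of the glomus cell markers was 9.26 on hypoxic neuroblast replicate 1, the array with the lowest Ece1 signal, against 10.04 to 10.12 on the other 3 arrays of that group. That array was also lowest in its group for neuroblast and HNK-1 markers (6.97), peripheral neuron markers (5.22) and glial markers (5.82). It was highest in its group for endothelial (5.27), macrophage (5.02) and other blood cell markers (4.425). Of 12 neuroblast and HNK-1 markers 6 were higher in neuroblasts in normoxia and limma passed none in hypoxia, where 2 had an unadjusted p under 0.05. Over all probes 1.82% passed between the populations in normoxia and 0.283% in hypoxia. In neuroblasts 9 of these 12 fell with hypoxia and 1 rose, and in glomus cells 3 fell. Of the 12, 9 lie among the brightest 25% of probes, of which 37.2% passed as lower in neuroblasts and 26.7% in glomus cells, against 13.7% and 9.5% of all probes.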

How the data were processed

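The authors deposited 1 table of log2 signals, with 30429 probes of an Affymetrix rat gene array and 16 samples. Cell sorting, RNA extraction and biotinylated cDNA made from 500 pg of total RNA are given per the labels' protocols. Transcriptome Analysis Console is named per the submitters' processing notes; no source used here gives its version, the background correction or the normalization. The log2 base was inferred from the range of 0.87 to 13.33. Of the probes, 18511 name 1 gene, 575 several and 11343 none. RefSeq promoters in GRCr8 were read for Edn1 and Ece1, and Edn3 was not matched.

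All probes were fitted with 1 mean per group in limma 3.58.1 (lmFit and eBayes, R 4.3.3, 12 residual degrees of freedom), with two-sided tests adjusted by Benjamini-Hochberg. The fit was checked on simulated data. Counts of genes with an unadjusted p under 0.05 are given without the share of all probes beside them. Figures used Python 3.11.15 and matplotlib 3.10.9. The number of arrays limits precision. The genes and lists were chosen with earlier results of these data known. Named are, of the genes that passed in a comparison, those of smallest p (at most 3 per pathway list and 2 per marker list), the usual defining markers and the 3 nearest patterns of each endothelin gene that passed. Residuals of same-numbered arrays correlated from -0.105 to 0.205. Some pairs were above 0.1, but in no comparison were all 4, so replicate numbers were not taken as pairs. These correlations cannot decide whether same-numbered samples came from 1 pool. A planned comparison of receptor balance was not run.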

Additional observations from a re-analysis of the deposited data

How the results depend on the processing

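The Ece1 difference in glomus cells ran from -1.20 to -0.83 under 8 alternatives and passed in all 8 (limma adjusted p from 0.00126 to 0.0314), and from -1.10 to -0.92 with 1 array left out. In neuroblasts Ece1 ran from -1.33 to -0.79, and from -1.29 to -0.73 with 1 array left out; fitted on the 8 neuroblast arrays alone it was -1.05 with adjusted p = 0.0544. Edn3 in neuroblasts was 0.29 with centring, 0.55 with quantile normalization, 0.40 with array weights (adjusted p = 0.146) and 0.57 on the neuroblast arrays alone (adjusted p = 0.0858), none past the threshold, and 0.39 to 0.67 with 1 array left out. In glomus cells Edn3 turned to -0.19 with centring and -0.062 with quantile normalization, and ran from -0.088 to 0.16 with 1 array left out. Edn1 there turned to -0.062 and -0.086 under those scalings. The Ece1 interaction was 0.0083 with quantile normalization and 0.19 with array weights, and ran from -0.31 to 0.25 with 1 array left out. The cause of these changes was not tested.

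Of the endothelin genes, 0 to 1 passed in glomus cells and 1 to 2 in neuroblasts with 1 array left out. In neuroblasts 1 passed with centring, quantile normalization, array weights or a threshold of 0.01, and 0 on the neuroblast arrays alone; at 0.01, 0 passed in glomus cells. In glomus cells 9490 probes passed with array weights and 3218 at 0.01; in neuroblasts 6262 passed on those arrays alone and 5195 at 0.01. Between populations in normoxia 1081 passed with array weights and 282 at 0.01. In hypoxia 151 passed with quantile normalization, 25 on those arrays alone, 130 with the replicate block over all arrays and 35 at 0.01. The interaction gave 11 with centring, 83 with array weights, 14 with the replicate block within each condition and 5 at 0.01.

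With centring or quantile normalization 0 processing genes were higher in either population and 0 signalling genes were higher in neuroblasts. Neural crest genes lower were 1 and 1 in glomus cells and 2 and 1 in neuroblasts, and 2 were higher in neuroblasts with quantile normalization, when 4 factors that act on Edn1 were lower in glomus cells. With 1 array left out, processing genes higher were 0 to 2 in each population and 2 to 3 were lower in neuroblasts; signalling genes higher in neuroblasts were 0 to 1; neural crest genes higher were 0 to 1 in glomus cells and 1 to 2 in neuroblasts, with 0 to 1 lower in each; and factors lower were 4 to 7 in glomus cells. The replicate block over all arrays, whose numbers are not shown to pair samples, gave Ece1 -0.98 in glomus cells (adjusted p = 0.0105) and -1.05 in neuroblasts (adjusted p = 0.00481), and Edn3 0.57 in neuroblasts (adjusted p = 0.0346). With the block within each condition, no population difference of Ece1 passed (limma adjusted p = 0.68 in normoxia and 0.453 in hypoxia). Neither did one of Edn3 (limma adjusted p = 0.751 and 0.613). The planned receptor balance was not run, since Ednra and Ednrb were not analysed here. Edn1 lies among the dimmest 25% of probes, and its distance from background was not tested.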
